A study of Drosophila melanogaster with 4 samples.

Results

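The probes for olfactory and gustatory receptor genes were 118 of the 15744 probes on the array. They were chosen by symbol, as the probes with a single gene symbol that is Or or Gr followed by a digit, or Orco. They stood for 114 of the 12236 genes with a named probe, namely 58 odorant receptor genes with Orco counted among them and 56 gustatory receptor genes. Of these, 112 genes had 1 probe each, Or35a had 2 and Gr39a had 4. In assembly Release 6, 25 of the genes lie on chromosome arm 2L, 28 on 2R, 20 on 3L, 27 on 3R and 13 on X, and Or85e was not matched to a position. The gene table holds 121 such genes, and the 7 without a probe were not analysed here.

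Insect odorant receptors are membrane proteins that form odour-gated ion channels together with the shared coreceptor Orco. Gustatory receptors are a related family that serves the taste of sugars and bitter compounds and, in Gr21a and Gr63a, the sensing of carbon dioxide. Most of these genes are transcribed in a few sensory neurons each, and not in the eye primordium. Those active in the larva are transcribed mainly in the chemosensory organs of the head. Not all are larval: of the odorant receptor genes with a probe, 24 are on the list of larval ones used below.

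The series asked which messenger RNAs B52, a splicing regulator of the SR protein class, binds in the forming eye. One group of larvae carried GFP-B52 and the control group carried GFP-NLS, GFP with a nuclear localisation signal, each combined with GMR, a driver active in the differentiating eye. The front parts of 600 larvae of the third instar were pooled, RNA was recovered with an antibody to GFP, and polyadenylated RNA from both precipitates was hybridised to two-colour arrays. The 4 arrays were 2 replicates in either dye orientation, and the labels do not say whether the replicates came from separate larvae. The p-values thus cover the spread among these samples alone, and it may be technical. The dissected part also holds brain, mouth parts and the larval chemosensory organs. In such a mixture, fewer cells of a type and less RNA per cell cannot be told apart. A log ratio carries no level, so whether sensory neurons contributed RNA could not be checked from markers such as Orco.

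The deposited values are log ratios of the 2 channels, and no source used here gives their log base or direction. Each array was centred on its median, and the arrays with GFP-B52 RNA in Cy5 were multiplied by -1. These turned values are a comparison of the 2 precipitates if every deposited column holds the same dye ratio. Positive values are on the side of the B52 probe from which the sign was chosen, and which precipitate was higher there is unknown. If the columns instead already hold a ratio of the precipitates, the unturned values are the comparison, so both are given. The value of a probe is the mean of 2 replicates, with the SD between them (n = 2). Array values are listed in the order replicate 1 with GFP-B52 RNA in Cy5, replicate 1 with it in Cy3, and the same for replicate 2. Over the 4 arrays 13963 probes had a complete set of values, and with so few arrays the precision of each is limited.

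Receptor probes more often lacked a value than probes in general. On the arrays in the above order, 13, 7, 11 and 12 of the 118 probes had none, which is 11.0%, 5.93%, 9.32% and 10.2%. Over all probes the shares were 6.07%, 2.22%, 3.61% and 2.78%, and over 47 probes for ribosomal proteins of the cytosol, which are among the most abundantly transcribed genes, between 2.13% and 4.26%. The share of receptor probes was the higher one on every array. Both families had the higher share on every array, except that odorant receptors on the array of replicate 1 with GFP-B52 RNA in Cy3 lacked a value for 1 probe of 59, or 1.69%. Other chemosensory genes shared this in part. Of 52 probes for ionotropic receptors, 9.62%, 3.85%, 5.77% and 3.85% had no value, above all probes on every array. Of 51 probes for odorant-binding proteins it was 9.80%, 3.92%, 0.0% and 3.92%. No source used here says why cells are empty.

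**Figure D1:**
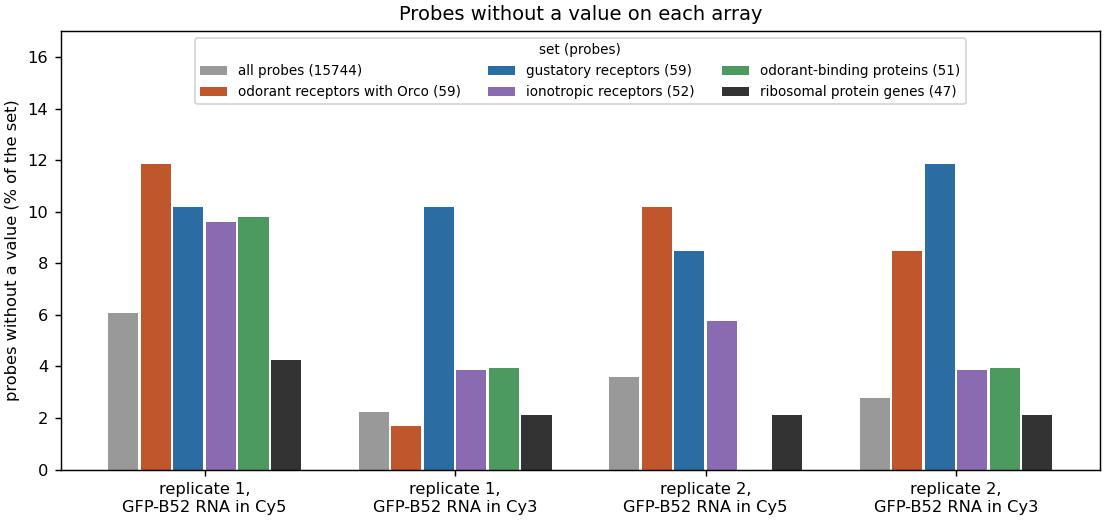
Percent of the probes of 6 sets that have no value, for each of the 4 arrays; each bar is the share of the whole set, whose number of probes is in the legend. Gustatory receptors lie between 8.47% and 11.9% on the 4 arrays, while all probes lie between 2.22% and 6.07%.

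Every receptor probe had a value on at least 1 array. Of the 118, 87 had a value on all 4 arrays, 21 on 3, 8 on 2 and 2 on 1. The complete probes were 73.7% of the receptor probes against 88.7% of all probes, and they stood for 84 genes. Or65c and Gr59e were the probes with 1 value. Among those with 2 was Or98a, which was at 0.40 on the array of replicate 1 with GFP-B52 RNA in Cy3 and at 1.45 on that of replicate 2; it was picked out after its values were seen. Everything below is about the 87 complete probes, 47 for odorant receptors and Orco and 40 for gustatory receptors.

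None of the 87 receptor probes passed the test for a difference from 0 in the turned values. In limma on the mean of 2 replicates, with p-values adjusted over all 13963 probes, their adjusted p lay between 0.286 and 0.992. No probe of the array passed either, a share of 0.0%. An unadjusted p under 0.05 was reached by 6 receptor probes, or 6.90%, beside 12.9% of all probes. They were 2 on the positive side, beside 5.22% of all probes, and 4 on the negative side, beside 7.73%.

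The turned values of the receptors scattered nearly as widely as those of all probes. Their median was -0.027 log units with a median absolute deviation of 0.047, beside -0.0025 and 0.055 over all tested probes. The central 90% of receptor means ran from -0.15 to 0.13, beside -0.18 to 0.17 over all probes. If the values are log10, the receptor ends are 1.41-fold and 1.34-fold, and if they are log2, 1.11-fold and 1.09-fold. A mean farther than 0.2 from 0 was found for 3 receptor probes, or 3.45%, beside 7.32% of all probes, and one farther than 0.1 for 19, or 21.8%, beside 26.3%. The 2 families had similar medians, -0.022 for odorant and -0.029 for gustatory receptors, with median absolute deviations of 0.048 and 0.038. The tails were wider for gustatory receptors. Their central 90% ran from -0.21 to 0.13, and that of odorant receptors from -0.12 to 0.096. The 3 probes farther than 0.2 from 0 were all for gustatory receptors.

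**Figure D2:**
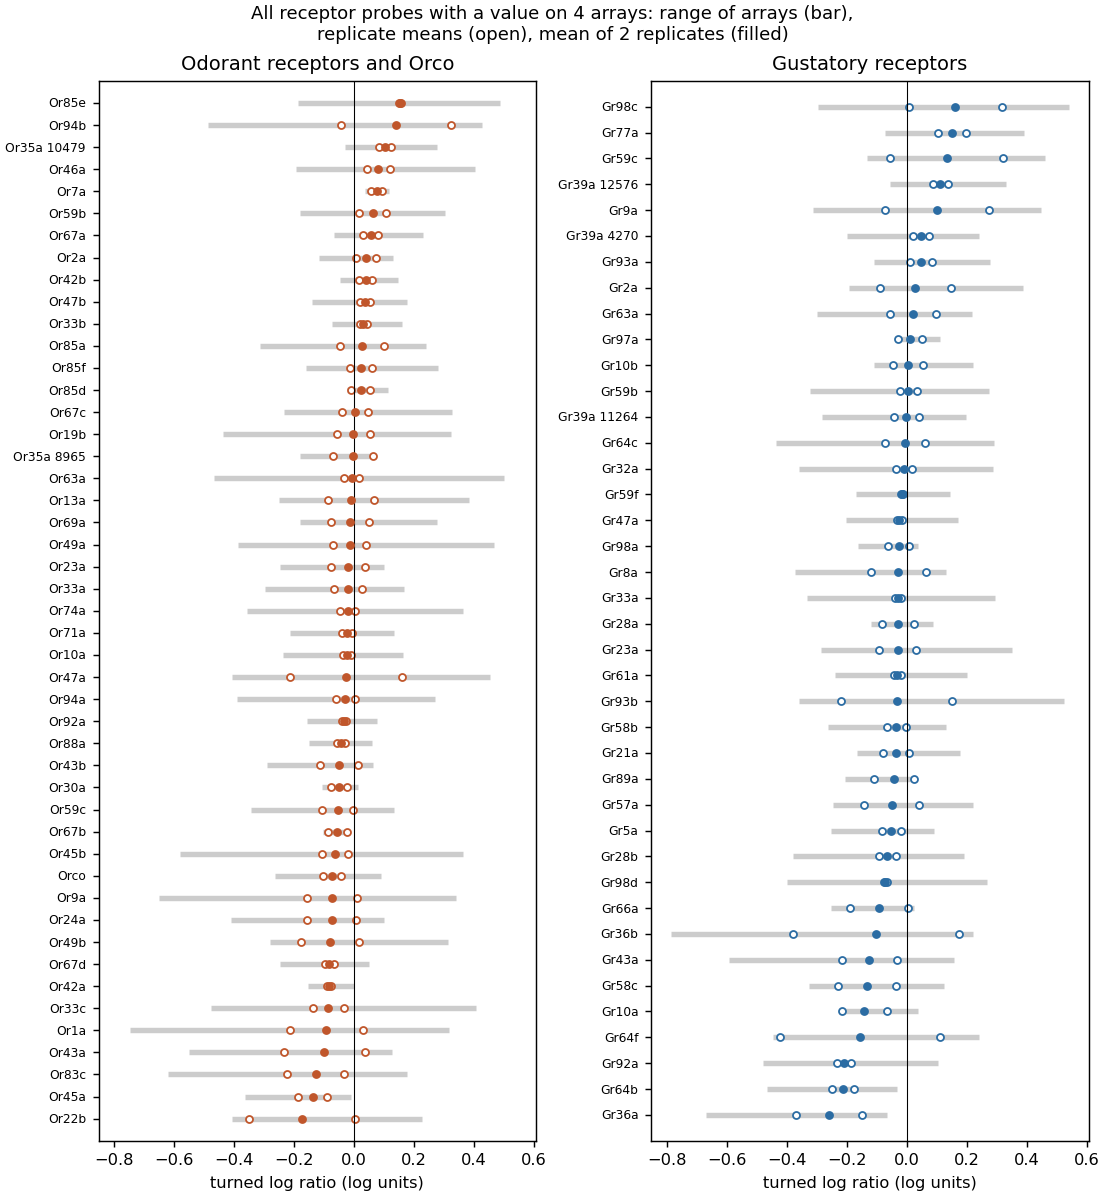
Turned log ratios of the 87 receptor probes with a value on 4 arrays, in deposited log units, ordered by their mean; the grey bar runs from the lowest to the highest array, open circles are the replicate means and filled circles the mean of both. Bars cross 0 for all but 6 probes, and the means run from -0.26 for Gr36a to 0.16 for Gr98c.

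Below 0 lay 60 of the 87 receptor means, 69.0%, beside 51.2% of all probes. The count moved with single arrays. Without the array of replicate 1 with GFP-B52 RNA in Cy5 the receptor median was 0.064 and 27 means were below 0, and without the other array of that replicate the median was -0.10 and 70 were below 0. Without the array of replicate 2 with GFP-B52 RNA in Cy5 the median was -0.0033 and 45 were below 0. Where an array is dropped, the other array of its replicate stands alone and a dye effect does not cancel.

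The coreceptor Orco, on 3R from 5407183 to 5412406, did not keep 1 direction. Its array values were 0.09, -0.18, -0.26 and 0.05, so the 2 arrays of each replicate lay on opposite sides of 0. The mean was -0.07 ± 0.04 (SD, n = 2; adjusted p = 0.540 in limma).

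A single direction on all 4 arrays was kept by 6 receptor probes, or 6.90%, beside 14.0% of all probes. On the positive side it was 1 probe, or 1.15%, beside 5.96% of all probes, and on the negative side 5 probes, or 5.75%, beside 8.04%. The positive one was Or7a, an odorant receptor of larva and adult, on X from 8164266 to 8165708. Its values were 0.12, 0.07, 0.08 and 0.04, a narrow range, with a mean of 0.07 ± 0.03 (SD, n = 2; adjusted p = 0.526 in limma).

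Among the 5 on the negative side, Gr36a and Gr64b lay farthest from 0. Gr36a, on 2L from 17176618 to 17177921, had array values of -0.16, -0.14, -0.07 and -0.67. Its mean of -0.26 ± 0.15 (SD, n = 2; adjusted p = 0.298 in limma) was the lowest of all receptors and rested largely on the last array. Gr64b, a gene of the Gr64 sugar receptor cluster on 3L from 4028605 to 4032032, had values of -0.32, -0.03, -0.04 and -0.47. Both replicates had 1 array near 0 and 1 far below it, and the mean was -0.21 ± 0.05 (adjusted p = 0.289).

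The other 3 were odorant receptors of the larva. Or45a had values of -0.36, -0.01, -0.06 and -0.12 and a mean of -0.14 ± 0.07 (SD, n = 2; adjusted p = 0.377 in limma). Or42a, a receptor for fruit esters, had -0.06, -0.12, -0.001 and -0.15, with a mean of -0.08 ± 0.01. Or67b had -0.02, -0.03, -0.10 and -0.07, with a mean of -0.06 ± 0.04. For Or42a the replicate means lay close together, and for Or67b they were -0.025 and -0.087. Neither mean was distinguishable from 0 with 2 replicates (adjusted p = 0.493 and 0.643 in limma).

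The 6 probes with an unadjusted p under 0.05 were Gr36a, Gr64b, Or45a and 3 others, named here after their values were seen, whose arrays did not keep 1 direction. Gr92a, at 0.11, -0.48, -0.01 and -0.45, had the smallest p of the receptors, 0.008 unadjusted and 0.286 adjusted in limma. Its 2 arrays with GFP-B52 RNA in Cy3 were far below 0 and the other 2 near or above it. Or85e was at 0.49, -0.19, -0.01 and 0.33 and Gr77a at 0.39, 0.007, 0.28 and -0.07. In Or85e the mean of 0.15 ± 0.01 (SD, n = 2) joined replicate means that were alike while the arrays under each of them were not.

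The probes with the widest range over the turned arrays were Or1a, Gr36b, Or9a and Or63a. The larval receptor Or1a ran from -0.75 to 0.32 and Or9a from -0.65 to 0.34, in both with the 2 extremes in replicate 1. Gr36b, next to Gr36a on 2L, was at 0.03, -0.79, 0.13 and 0.22, so 1 array set its mean of -0.10 ± 0.39 (SD, n = 2). Or63a was at 0.50, -0.47, -0.03 and -0.04, and its mean of -0.01 ± 0.03 was close to 0 because the arrays of replicate 1 cancelled. In all 4 probes the 2 arrays of replicate 1 differed more than those of replicate 2. This is not particular to them, because the arrays of replicate 1 were wider over all tested probes. Their median absolute deviations were 0.167 and 0.148, against 0.082 and 0.089 in replicate 2.

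By role, no list of receptors held a probe that passed. Of the 25 odorant receptors listed as larval, 24 had a probe and 20 a complete one. Their 21 complete probes had a median of -0.020, with 15 below 0 (between 6 and 17 with 1 array left out, fewest without the array of replicate 1 with GFP-B52 RNA in Cy5), and the 25 complete probes of the odorant receptors not so listed had -0.023, with 16 below 0. Its members farthest from 0 by the moderated statistic were Or45a, Or42a and Or35a probe 10479, which is described below.

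Among 4 receptors for fly pheromones and fly odours, 3 had a complete probe. Or67d, the receptor for the male pheromone cis-vaccenyl acetate, was at -0.25, 0.05, -0.10 and -0.04, a mean of -0.08 ± 0.02 (SD, n = 2; adjusted p = 0.498 in limma). Or88a lay at -0.04 ± 0.02 and Or47b at 0.04 ± 0.03. The carbon dioxide receptors Gr21a and Gr63a, which act as a pair in the same neurons, had means on opposite sides, -0.04 ± 0.06 and 0.02 ± 0.11. All of these means were within the central range of the receptors.

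Of 9 sugar receptors 7 had a probe and 6 a complete one. All 6 means were negative, with a median of -0.088, while 69.0% of receptor means and 51.2% of all probes were negative. Without the array of replicate 1 with GFP-B52 RNA in Cy5 only 3 of the 6 were negative, and 5 without any other array. Gr64b was described above. Gr43a, a fructose sensor, was at -0.59, 0.16, -0.16 and 0.10, a mean of -0.12 ± 0.13 (SD, n = 2; adjusted p = 0.474 in limma). Gr64f, a coreceptor for several sugars, was at -0.02, 0.24, -0.40 and -0.45, so its replicates disagreed in sign and the mean was -0.15 ± 0.38 (adjusted p = 0.655). The trehalose receptor gene Gr5a lay at -0.05 ± 0.04, Gr61a at -0.03 ± 0.02 and Gr64c at -0.01 ± 0.09. Gr64b and Gr64c share 1 span in the gene table.

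Bitter receptors, 9 of 11 genes with 11 complete probes, had a median of -0.009 with 7 below 0, and with 1 array left out between 3 and 8 were below 0, fewest without the array of replicate 1 with GFP-B52 RNA in Cy5. Gr66a, expressed throughout the bitter-sensing neurons, was at -0.25, -0.12, 0.03 and -0.02. The arrays of replicate 1 were low and those of replicate 2 near 0, and the mean was -0.09 ± 0.14 (SD, n = 2; adjusted p = 0.574 in limma). Gr59c, at 0.46, 0.18, -0.13 and 0.02, likewise parted by replicate, with a mean of 0.13 ± 0.27 (adjusted p = 0.606).

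Both genes with several probes had more than 1 complete probe. The Gr39a locus, which has alternative first exons, had 3 complete probes. Probe 12576 was at 0.33, -0.06, 0.04 and 0.13, with a mean of 0.11 ± 0.04 (SD, n = 2), probe 4270 at 0.05 ± 0.04 and probe 11264 at -0.001 ± 0.06. For Or35a, probe 10479 was at 0.28, -0.03, 0.19 and -0.02, a mean of 0.10 ± 0.03, and probe 8965 at -0.18, 0.04, 0.07 and 0.05, a mean of -0.01 ± 0.09. Where in the transcripts the probes lie was not analysed here, so different transcripts and error cannot be told apart in these differences.

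The turned means of the 2 replicates did not rank the receptors alike. Across the 87 probes, which are not independent replicates and share the same arrays, the correlation of the replicate means was -0.052 by Pearson and -0.046 by Spearman. Over all 13963 probes these were 0.311 and 0.347. Both replicate means had the same sign for 49.4% of receptor probes, 28 negative and 15 positive, against 60.8% of all probes. With 1 array left out, r lay between -0.18 and 0.059 for the receptors, and over all probes it fell to 0.076 without the array of replicate 1 with GFP-B52 RNA in Cy5. The correlation of the replicate means was -0.024 within odorant receptors and -0.074 within gustatory receptors. Single turned arrays with GFP-B52 RNA in the same dye correlated between replicates at 0.247 (Cy5) and 0.284 (Cy3) for receptors. Over all probes these were 0.266 and 0.258. Opposite dyes gave -0.206 (replicate 1 in Cy5) and -0.439 (replicate 1 in Cy3), beside 0.014 and -0.115 over all probes. Within replicate 1 the 2 turned arrays ran against each other, at -0.593 for receptors and -0.608 over all probes. Within replicate 2 they were at 0.119 and 0.167.

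The spread between replicates was of the size of the means. The median SD between replicates was 0.063 for receptor probes and 0.053 for all probes. For 54 receptor probes, or 62.1%, the mean was smaller than its SD, against 49.9% of all probes. For 44 complete ribosomal protein probes, whose median was 0.069, r of the replicate means was 0.689. With 1 array left out their r lay between 0.417 and 0.677, lowest without the array of replicate 1 with GFP-B52 RNA in Cy5, and their median between 0.042 and 0.089, lowest without the array of replicate 2 with it in Cy3.

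**Figure D3:**
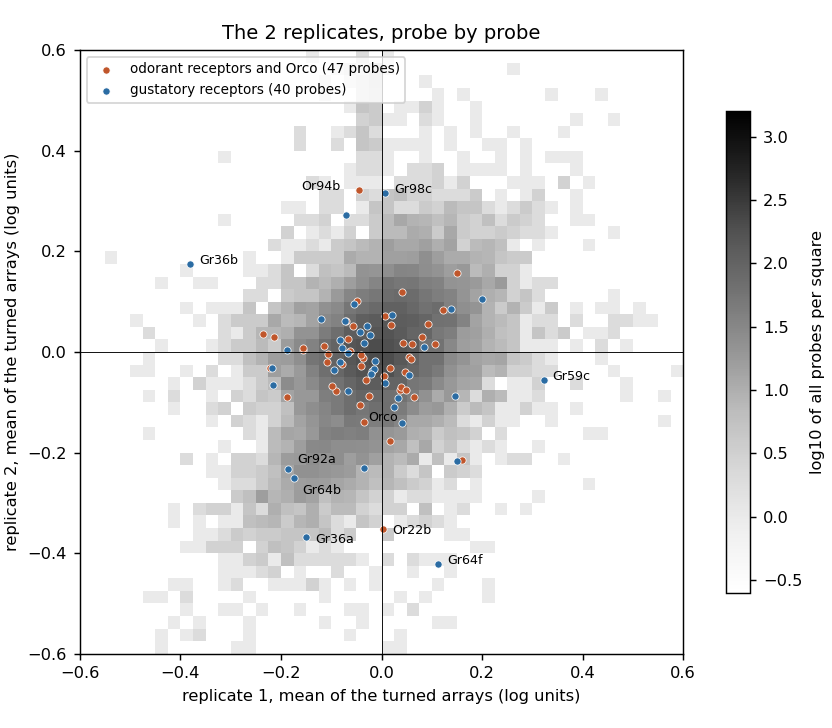
Mean of the turned arrays of replicate 1 against that of replicate 2, in deposited log units; grey squares give the number of all probes on a log10 scale (203 probes lie outside the plot), and coloured points are the 47 odorant and 40 gustatory receptor probes. The receptor points form a cloud without a slope (r = -0.052) inside the cloud of all probes, which is tilted (r = 0.311).

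Unturned, the receptors were shifted to 1 side. The median over receptor probes of the mean of 4 centred columns was 0.09, with a median absolute deviation of 0.11, beside 0.0005 and 0.082 over all probes. It equals 1.23-fold if the values are log10 and 1.06-fold if they are log2. Of the 87 probes 63 were above 0, or 72.4%, beside 50.1% of all probes. All 4 columns were above 0 for 28 receptor probes, or 32.2%, beside 11.4% of all probes, and all 4 were below 0 for 7, beside 10.6%.

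No receptor probe passed in limma on the unturned values either, where 34 probes above 0 and 58 below did over the whole array, or 0.244% and 0.415%. An unadjusted p under 0.05 was reached by 16 receptor probes above 0, or 18.4%, beside 4.16% of all probes, and by 1 below 0, Gr92a, beside 5.78%. The smallest was that of Or9a, with unturned columns of 0.65, 0.34, 0.18 and 0.20 (adjusted p = 0.285). Others among the 16 were Gr43a, with 0.59, 0.16, 0.16 and 0.10, and Or1a, with 0.75, 0.32, a value within 0.001 of 0, and 0.06. In both, which were already named above, the highest column was that of replicate 1 with GFP-B52 RNA in Cy5. This did not hold for all 16: in Gr98c and Or46a the highest was replicate 2 with it in Cy3.

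In log units the shift lay mostly in replicate 1. The columns of replicate 1 were also wider over all tested probes, with median absolute deviations of 0.167 and 0.148. Those of replicate 2 had 0.082 and 0.089. Column medians of the receptors were 0.193 and 0.158 in replicate 1 and 0.024 and 0.004 in replicate 2, while those of all tested probes were between -0.005 and 0.001. Above 0 lay 68 and 62 of 87 receptor probes in the columns of replicate 1 and 56 and 46 in those of replicate 2. The median of the unturned means was 0.18 within replicate 1 and 0.02 within replicate 2. Between the 2 replicates the unturned means of the receptors correlated at r = 0.471 across probes, beside 0.270 over all probes. The dyes and the precipitates cannot be told apart in this shift while the direction of the columns is unknown.

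**Figure D4:**
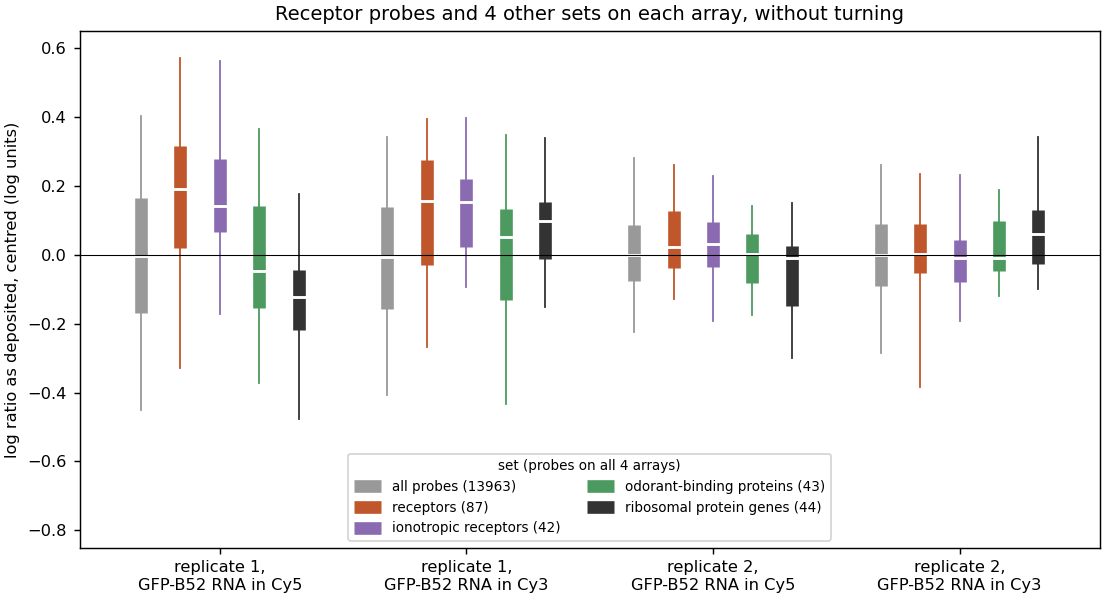
Centred log ratios as deposited, without turning, on each array for 5 sets of probes with a value on all 4 arrays; thin lines run from the 5th to the 95th percentile, thick bars from the 25th to the 75th, and white lines are medians. Receptors lie above all probes in replicate 1, with medians of 0.193 and 0.158, and close to them in replicate 2, with 0.024 and 0.004.

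Split over the 4 sign patterns that the arrays allow, the turned comparison took 13.3% of the mean square of the receptor values. The unturned mean took 49.9%, the difference between replicates 13.5% and the remaining pattern, an unturned mean that differs between replicates, 23.3%. Over all probes the shares were 22.6%, 40.2%, 12.3% and 24.9%. For ribosomal proteins the turned comparison held the largest share, 54.4%.

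Other chemosensory genes are expressed in the same organs in part. Of 119 such probes 100 were complete, and none passed in limma on the turned values; 11 reached an unadjusted p under 0.05, beside 12.9% of all probes, 7 of them positive, beside 5.22%, and 4 negative, beside 7.73%. The ionotropic receptors, a separate family of odour and taste channels, had values near those of the Or and Gr genes. Their 42 complete probes had a turned median of -0.025, replicate means correlated at r = 0.004, and the unturned median was 0.063. Without the array of replicate 1 with GFP-B52 RNA in Cy5 their turned median was 0.060, and without the other array of that replicate -0.086, while r lay between -0.16 and 0.17 with 1 array left out. The 8 complete probes of CheA and CheB genes had an unturned median of 0.085.

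Odorant-binding proteins, which are secreted by support cells and include members made in many tissues, had other values. Their 43 complete probes had a turned median of 0.010, an r of 0.559 between replicates and an unturned median of -0.008. Without the array of replicate 1 with GFP-B52 RNA in Cy5 that r was 0.012. Obp99b was at 0.33, 0.23, 0.19 and 0.21, positive on every array, with a mean of 0.24 ± 0.06 (SD, n = 2; adjusted p = 0.277 in limma). Obp56e, at 0.18 ± 0.01, and Obp44a, at 0.15 ± 0.01, were also positive on 4 of 4 arrays. Ir56a was at -0.45, 0.16, 0.03 and -0.38, so the arrays of each replicate lay on opposite sides of 0 under a mean of -0.16 ± 0.02. These 4 had the largest moderated statistics of the other chemosensory genes, and the difference between the families was not tested.

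By chromosome arm the turned medians of the receptors lay between -0.035 on 2R and -0.012 on X and the unturned medians between 0.051 on 2L and 0.14 on 2R. Of the 113 receptor genes with a position, 33 overlap another annotated gene. Their 31 complete probes had a turned median of -0.025 and an unturned one of 0.12, and the 56 others -0.028 and 0.081. Many receptor genes sit in tandem. The 17 pairs of measured genes within 10000 bases of each other differed in their turned means by a median of 0.12 log units, and the 3386 other pairs by 0.067. In their unturned means they differed by 0.10 and 0.14. The pairs are not independent, as some share a gene, and the difference was not tested. Among the near pairs were Gr36a and Gr36b, whose turned means each rested largely on 1 array.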

How the data were processed

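The authors deposited 1 table of log ratios, a unit of another kind than intensities, with 15744 probes and 4 arrays. Background correction, normalization, log base and direction are stated in no source used here. The column medians lay between 0.002 and 0.006, close to 0, and whether a centring step produced this is not stated. Between 350 and 955 cells per array were empty, and 16 cells with a placeholder far below all other values were treated as missing.

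Symbols came from the platform annotation, updated by gene identifier to Release 6. Of all probes 13147 had 1 symbol, 99 several and 2498 none here. Positions are those of genes, not probes. No sequence of probes or genes was used here, so the part of the naming rule on near-identical proteins was not applied; near-identical receptors may share signal.

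Arrays were centred on their median. The columns with GFP-B52 RNA in Cy5 were turned, with the sign chosen on a B52 probe in earlier work on these data. Dye orientations were averaged per replicate and 13963 complete probes tested in limma 3.58.1 (R 4.3.3; lmFit, eBayes, Benjamini-Hochberg at 0.05), with 1 residual and 3.47 prior degrees of freedom. The test was also run on simulated data, and its power to find a change is not given here. Each replicate number is shared by 2 dye orientations, so averaging was the main setting and the replicate block an alternative. Named probes were Orco, up to 6 per side of 1 direction on all arrays, the 4 widest ranges, up to 3 per role list by moderated statistic, and genes with several probes. The members, lists and rules were chosen with earlier results of these data known. The alternatives were those described in the closing section.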

Additional observations from a re-analysis of the deposited data

How the results depend on the processing

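No receptor probe passed an adjusted p of 0.05 in limma under any setting run, the replicate block included (0 of 87, with 447 probes of the array passing in that fit, whose estimated correlation was -0.66). The number of receptor probes at an unadjusted p under 0.05, 6 in the report, was 17 without turning, 10 with the replicate block, 3 with a dye term and 0 with 4 arrays as separate samples; with 1 array left out it lay between 3 and 7, lowest without replicate 1 with GFP-B52 RNA in Cy5. The number of 1 direction was 35 without turning and 13 with at least 1 array per replicate (113 probes), and between 9 and 35 with a replicate or array left out, where fewer arrays must agree. The median of -0.027 was 0.0895 without turning and lay between -0.102 and 0.0638 with a replicate or array left out, so its sign is not settled. The spread of 0.047 was 0.112 without turning and lay between 0.0503 and 0.0815 with a replicate or array left out. Among alternatives chosen after the data were seen, the 16 receptor probes above 0 in the unturned test became 9 without replicate 2 with GFP-B52 RNA in Cy5, the lowest, and 15 at most without any other array. Of 25 named probes 14 changed sign without turning, 8 without replicate 1, 3 without replicate 2, 2 with the arrays brought to equal spread, and between 2 and 8 with 1 array left out, where between 13 and 20 moved by over 1.5 times; Orco went from -0.07 to 0.005 without replicate 2 with GFP-B52 RNA in Cy5. The cause was not tested. Signal over background is unknown, as no intensities were analysed here.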
